A study of Homo sapiens with 32 samples.

Results

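Hypoxia was compared with normoxia in the total mRNA (T) of MDA-MB-231 cells, a human line from a metastatic triple-negative breast carcinoma. The comparison held 4 of the 32 RNA-Seq libraries of the series, namely the 2 hypoxic (H) and the 2 normoxic (N) libraries of total mRNA from this line, chosen from their labels for line, oxygen and fraction with no measured value used. N cells were kept at 21% O2 and H cells at 0.5% O2 for 24 hours, both in DMEM with serum and neither with a drug. The other libraries of the line held polysome-bound mRNA (P) of the same conditions, or RNA of cells given the mTOR kinase inhibitor PP242 (2.5 µM, 3 hours), named NPP in normoxia and HPP in hypoxia. MCF10A, an immortalised breast epithelial line that does not form tumours, went through the same treatments in a medium of its own with EGF, insulin, hydrocortisone and cholera toxin, so the line and its medium cannot be told apart. The labels number the 2 libraries of each group as replicates.

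Cells sense oxygen through the EGLN prolyl hydroxylases, which use O2 to mark the α subunits of the hypoxia-inducible factors (HIF) for removal by the VHL ubiquitin ligase. When O2 is scarce, HIF1α (HIF1A) and HIF2α (EPAS1) accumulate as proteins, pair with ARNT and bind short DNA elements with the core ACGTG or GCGTG. Their known targets move cells from respiration to glycolysis, export acid, remodel collagen, clear mitochondria and call for new vessels. In breast carcinoma this programme is known for its link to invasion and poor outcome.

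The 2 N_T libraries held 27262404 and 18340916 counts and the 2 H_T libraries 36585976 and 25094053. Protein-coding genes held 98.2% and 98.1% of the N_T counts and 98.2% and 97.8% of the H_T counts. The deposited values were expected counts per gene, and levels are given below as CPM, which are counts scaled to library size after TMM normalisation. Of 19815 protein-coding genes, 13510 had enough counts to be tested. The mesenchymal markers summed to 5864 and 6441 CPM in N_T and to 7524 and 7402 CPM in H_T, with vimentin (VIM) the most abundant. ESR1, the oestrogen receptor that triple-negative tumours lack, was at 0.215 and 0.0568 CPM in N_T and at 0.136 and 0.0911 CPM in H_T. The markers of 2 other cell types were low as well, with sums of 37.8 to 68.3 CPM for basal epithelium and of 5.92 to 7.77 CPM for endothelium. Luminal markers summed to 903 to 994 CPM, most of it KRT8, KRT18 and KRT19, and leukocyte markers to 83.7 to 94.1 CPM, most of it CD68. None of the marker genes passed the test between H_T and N_T, and their part in the results was not tested. In such bulk RNA, fewer cells of a type and less RNA per cell cannot be told apart.

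After hypoxia, 132 genes rose and 39 fell in total mRNA, with CA9, NDRG1, PPFIA4 and BNIP3 among the largest increases and HIF1A and VIPR1 among the largest decreases. A gene was called at an adjusted p under 0.05 (edgeR quasi-likelihood F test, Benjamini-Hochberg over all tested genes). The calls were 0.977% (higher) and 0.289% (lower) of the tested genes. At an unadjusted p under 0.05 there were 1712 genes. The log2 fold change had a median of 1.17 over the 132 genes that rose and of −1.03 over the 39 that fell, against −0.02 over all tested genes. Among the called genes, 85 increases and 21 decreases reached an absolute log2 fold change of 1, and 20 increases and 3 decreases reached 2. In all 171 called genes the H_T and N_T libraries did not overlap, which was also so for 17.4% of all tested genes on the higher side and 20.2% on the lower. The genes that rose took 1.32% and 1.27% of the N_T counts and 3.01% and 2.69% of the H_T counts. Calls came from all levels of expression, with 26, 35, 26 and 45 increases and 9, 16, 7 and 7 decreases from the lowest to the highest quartile of mean level.

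The count of called genes depended on single libraries. Without N_T replicate 1 it was 58 higher and 44 lower, and without H_T replicate 1 it was 62 and 13. Without N_T replicate 2 it was 45 and 9, and without H_T replicate 2 it was 121 and 11. A core of 41 genes was called with each of the 4 libraries left out in turn, 38 higher and 3 lower, while 43 genes were called in none of these 4 fits. No called gene changed sign when a library was left out. A permutation test of 1 gene could not go below p = 0.333 (2-sided) with groups of this size, so single genes rest on the fit across all genes.

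**Figure D1:**
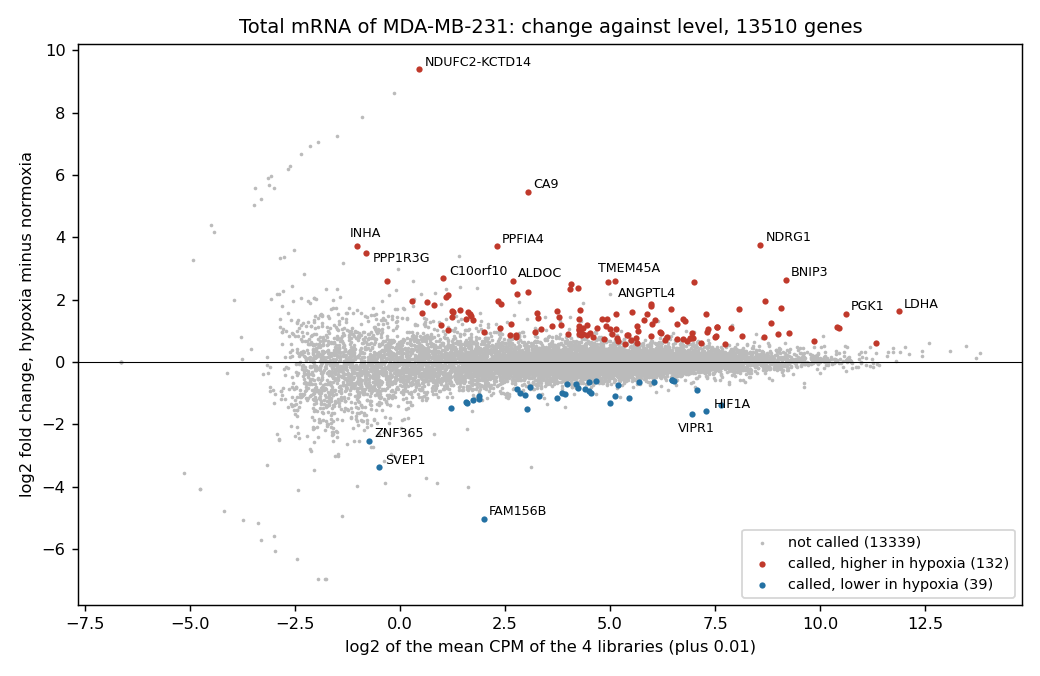
Log2 fold change of H_T against N_T (vertical axis) plotted against the log2 of the mean CPM of the 4 libraries (horizontal axis) for the 13510 tested genes, with 132 genes called higher in red, 39 called lower in blue and the rest in grey. Most genes lie near 0, NDRG1 and BNIP3 stand out at high level, and the outermost points at the left are genes with few counts.

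The promoters of the leading genes are shown for the reader to see where the HIF core letters stand. The sequences come from RefSeq on GRCh38.p14 and hold up to 250 bases before the start site, without any base inside the gene as GENCODE v44 places it. Each is written 5′ to 3′ along the gene, and capitals mark ACGTG on either strand, so that CACGT is the same letters read from the other strand and CACGTG is a pair of overlapping matches. CA9 lies at chr9:35673678-35673927 (plus strand), BNIP3 at chr10:131981968-131982173 (minus), PPFIA4 at chr1:203026241-203026490 (plus), ALDOC at chr17:28576949-28577145 (minus), TMEM45A at chr3:100492369-100492618 (plus), C10orf10 at chr10:44978810-44979059 (minus) and PPP1R3G at chr6:5085091-5085340 (plus). These 7 are among the 12 largest increases. HIF1A, at chr14:61695263-61695512 (plus), is shown because its own mRNA fell.
CA9: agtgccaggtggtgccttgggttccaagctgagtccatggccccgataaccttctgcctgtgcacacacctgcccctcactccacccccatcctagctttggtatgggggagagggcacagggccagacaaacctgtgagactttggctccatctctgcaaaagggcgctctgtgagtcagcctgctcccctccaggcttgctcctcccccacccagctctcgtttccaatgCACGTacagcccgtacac
BNIP3: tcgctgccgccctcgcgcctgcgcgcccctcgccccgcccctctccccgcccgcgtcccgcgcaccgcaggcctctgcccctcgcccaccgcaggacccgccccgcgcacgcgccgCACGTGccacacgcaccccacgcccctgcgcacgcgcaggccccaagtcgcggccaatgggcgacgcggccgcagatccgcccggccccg
PPFIA4: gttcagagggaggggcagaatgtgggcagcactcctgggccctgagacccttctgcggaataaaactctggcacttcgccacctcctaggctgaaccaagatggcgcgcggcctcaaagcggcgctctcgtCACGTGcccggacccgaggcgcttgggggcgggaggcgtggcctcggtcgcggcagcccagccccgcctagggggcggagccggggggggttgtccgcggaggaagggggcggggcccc
ALDOC: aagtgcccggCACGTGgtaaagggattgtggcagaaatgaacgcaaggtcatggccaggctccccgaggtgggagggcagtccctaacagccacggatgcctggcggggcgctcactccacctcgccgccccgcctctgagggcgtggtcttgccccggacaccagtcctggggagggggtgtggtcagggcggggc
TMEM45A: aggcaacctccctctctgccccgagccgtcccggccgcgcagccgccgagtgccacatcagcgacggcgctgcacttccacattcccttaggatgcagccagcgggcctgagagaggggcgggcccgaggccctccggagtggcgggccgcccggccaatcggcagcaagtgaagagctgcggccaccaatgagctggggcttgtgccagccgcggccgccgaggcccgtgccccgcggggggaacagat
C10orf10: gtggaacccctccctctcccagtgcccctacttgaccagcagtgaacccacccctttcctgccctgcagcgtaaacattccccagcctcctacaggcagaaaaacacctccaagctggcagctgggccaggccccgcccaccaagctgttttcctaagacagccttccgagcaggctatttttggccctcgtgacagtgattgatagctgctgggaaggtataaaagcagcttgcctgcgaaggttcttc
PPP1R3G: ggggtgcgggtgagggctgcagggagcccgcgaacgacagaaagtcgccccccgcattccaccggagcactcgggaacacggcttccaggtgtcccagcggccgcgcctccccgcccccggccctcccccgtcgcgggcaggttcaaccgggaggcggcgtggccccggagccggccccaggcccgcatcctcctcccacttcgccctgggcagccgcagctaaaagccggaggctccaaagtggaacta
HIF1A: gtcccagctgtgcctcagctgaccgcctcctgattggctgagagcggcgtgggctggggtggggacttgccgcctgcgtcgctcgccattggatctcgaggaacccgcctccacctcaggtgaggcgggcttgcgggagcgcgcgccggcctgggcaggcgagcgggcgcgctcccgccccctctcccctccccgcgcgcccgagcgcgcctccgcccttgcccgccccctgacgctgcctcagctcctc
CA9 held a match close to its start, and BNIP3, PPFIA4 and ALDOC held CACGTG. TMEM45A and C10orf10 held neither ACGTG nor GCGTG, and PPP1R3G and HIF1A each held GCGTG once but no ACGTG. The window of NDUFC2-KCTD14, another of the 12, held each core once and is not shown because the counts of that gene are uncertain. A match describes letters and not a bound site.

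Windows of 300 bases, 250 before and 50 after the start, were found for 141 of the 171 called genes and for 10827 tested genes. ACGTG on either strand was in 38 of 110 windows (34.55%) of genes that rose and in 10 of 31 (32.26%) of genes that fell, against 26.43% of the windows of tested genes and 21.41% of all 35116 windows in the table. Among the genes that rose with every library left out it was in 19 of 32 (59.38%). GCGTG was in 42.73% of the windows of genes that rose, 67.74% of those that fell, 50.18% of those of tested genes and 13 of 32 (40.62%) of those that rose with every library left out. Either core was in 60%, 77.42%, 62.52% and 75% of the windows in the same order. CACGTG, which overlaps ACGTG on both strands, was in 13.64% of the windows of genes that rose, 12.9% of those that fell and 9.947% of those of tested genes. The median GC content of the windows was 66.83%, 68.33% and 65% in the same order. These shares were not tested.

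Among the HIF subunits and their regulators, EGLN1 and EGLN3, hydroxylases that restrain HIF, rose and HIF1A itself fell. Of 16 listed genes 15 were tested, 4 rose and 1 fell, beside 0.977% called higher and 0.289% lower over all tested genes. The median log2 fold change was 0.24, with 0.11 without H_T replicate 1 and 0.48 without H_T replicate 2. Of the medians of the 27 lists, 23 moved by more than 1.5 times or changed sign when 1 of the 4 libraries was left out. HIF3A had too few counts to test. EGLN3, a HIF prolyl hydroxylase, was at 5.06 and 5.80 CPM in N_T and at 27.3 and 27.5 CPM in H_T. Its H_T values were close to each other and far above N_T, with a log2 fold change of 2.34 ± 0.21 (n = 2 against 2) and an adjusted p of 3.04e-05. Values after ± are standard errors (SE), here and below. Each is the absolute log2 fold change divided by the square root of F. They come from the fit of all groups and not from the compared libraries alone. EGLN1, the main HIF prolyl hydroxylase of most cells, went from 61.6 and 53.6 to 142 and 126 CPM. This was a smaller rise of 1.22 ± 0.14 (adjusted p = 0.000304). BHLHE40, a transcriptional repressor and HIF target, went from 33.0 and 23.4 to 106.9 and 88.0 CPM, a log2 fold change of 1.79 ± 0.22 (adjusted p = 0.000504). RORA, a nuclear receptor of the circadian clock, stood below 1 CPM in N_T and at 2.55 and 2.32 CPM in H_T, with a log2 fold change of 1.93 (adjusted p = 0.00527), and it was called in 2 of the 4 fits with a library left out.

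HIF1A mRNA was at 265 and 204 CPM in the N_T libraries and at 83.7 and 73.7 CPM in the H_T libraries. Both H_T values were far below both N_T values. The log2 fold change was −1.58 ± 0.19 (adjusted p = 0.000304), and the gene was called with each library left out. HIF1A spans 61695513 to 61748259 on the plus strand of chromosome 14 (GRCh38). HIF1A-AS2, a non-coding gene on the opposite strand that overlaps it, went from 1.18 and 1.14 to 6.63 and 7.93 CPM on the same scaling. The strand was not stated for these libraries, so reads of the overlap cannot be assigned to either gene by strand. EPAS1 was at 36.7 and 30.9 CPM in N_T and at 57.5 and 22.2 CPM in H_T. The H_T replicates enclosed the N_T values (log2 fold change 0.24 ± 0.35, adjusted p = 0.848). ARNT, the shared partner, was at 34.7 and 29.6 CPM in N_T and at 29.8 and 26.8 CPM in H_T (−0.18, adjusted p = 0.665). CITED2, which blocks HIF from its coactivator, had the highest level per kilobase of the list in N_T and gave 0.09 (adjusted p = 0.872).

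CA9, the membrane carbonic anhydrase IX that is a standard marker of hypoxia, gave the largest increase among called genes with no near-identical or readthrough partner. It was at 0.574 and 0.0568 CPM in N_T and at 19.2 and 13.0 CPM in H_T. The H_T libraries were close together, while the N_T libraries differed and were near the lower end of detection. The log2 fold change was 5.46 ± 0.67 (adjusted p = 0.000445), which is 44.0-fold. This size rests on the N_T libraries, which held 16 counts and 1 count, and was 8.06 without N_T replicate 1 and 4.81 without N_T replicate 2, with a call in every fit. CA9 lies on chromosome 9 at 35673928 to 35681159, plus strand, and its match to ACGTG stands in the sequence above. It belongs to the genes of pyruvate fate, glycogen and acid export, of which 6 of 22 rose and none fell. Over all tested genes 0.977% were called higher and 0.289% lower. The median of the list was 0.22 (0.14 without H_T replicate 1 and 0.38 without H_T replicate 2). PDK1, the kinase that keeps pyruvate out of the mitochondrion, went from 10.4 and 8.24 to 27.2 and 32.4 CPM (1.67 ± 0.22, adjusted p = 0.000869). GBE1, the glycogen branching enzyme, went from 100.8 and 107.2 to 217 and 217 CPM (1.06, adjusted p = 0.000531). PGM1, which links glycogen to glycolysis, went from 111.5 and 103.4 to 212 and 205 CPM (0.96, adjusted p = 0.000937). SLC16A3, the lactate exporter MCT4, had the highest level per kilobase of this list and went from 360 and 358 to 712 and 622 CPM (0.89, adjusted p = 0.0129). Its call was lost without N_T replicate 1, H_T replicate 1 or N_T replicate 2 (adjusted p = 0.0839, 0.0867 and 0.127). PPP1R3C, a glycogen-targeting subunit of protein phosphatase 1, was the other member that rose (1.18, adjusted p = 0.0469), and it was called in none of the 4 fits.

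Glycolysis had the largest share of called members among the 27 gene lists. Of 23 listed genes 22 were tested, 13 rose and none fell, beside 0.977% called higher and 0.289% lower over all tested genes. The median log2 fold change was 0.77 against −0.02 over all genes. The summed level of the list was 14628 and 15079 CPM in N_T and 26102 and 26918 CPM in H_T. PFKFB4, an enzyme that makes the activator of phosphofructokinase, went from 4.27 and 5.85 to 31.3 and 26.1 CPM (2.52 ± 0.23, adjusted p = 3.39e-05). PFKFB3, which makes the same activator, went from 28.1 and 31.7 to 96.8 and 77.9 CPM (1.55 ± 0.18, adjusted p = 0.000294). ALDOC, an aldolase best known from brain, was low at 2.33 and 1.19 CPM in N_T and reached 12.5 and 9.66 CPM in H_T (2.61 ± 0.43, adjusted p = 0.00704). PGK1, phosphoglycerate kinase, went from 787.3 and 799.9 to 2212 and 2444 CPM (1.55 ± 0.17, adjusted p = 0.000134). LDHA, which turns pyruvate into lactate, went from 1868 and 1785 to 5284 and 6030 CPM (1.63, adjusted p = 0.000302). ENO2, an enolase, went from 40.5 and 36.2 to 82.4 and 95.4 CPM (1.21, adjusted p = 0.000294).

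The other glycolytic genes that rose were PGAM1, ALDOA, GPI, HK1, PFKL, TPI1 and ENO1, with log2 fold changes of 0.61 to 1.13. PGAM1 and ALDOA kept their call with every library left out, while TPI1 was called in none of these 4 fits. GAPDH, the most abundant gene of the list per kilobase, was at 3307 and 3618 CPM in N_T and at 4650 and 4952 CPM in H_T. Its libraries did not overlap, but the change of 0.47 ± 0.15 did not pass (adjusted p = 0.156). The glucose transporter SLC2A1 was at 632 and 359 CPM in N_T and at 693 and 535 CPM in H_T, and its groups overlapped (0.31, adjusted p = 0.762). The list had 8 called members without N_T replicate 1, without H_T replicate 1 and without N_T replicate 2. ALDOC lost its call without H_T replicate 1 or N_T replicate 2 (adjusted p = 0.0584 and 0.0963), and its log2 fold change was 3.22 without N_T replicate 1. HK1, PFKL and ENO1 were called in 1 of the 4 fits and GPI in 3. LDHA shares sequence with the processed pseudogene LDHAP4, which was at 16.5 and 16.3 CPM in N_T and at 44.4 and 50.3 CPM in H_T.

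NDRG1, a metastasis-related protein of the N-myc downstream regulated family that is induced by many stresses, had the smallest p of all genes. It was at 59.2 and 45.8 CPM in N_T and at 818 and 598 CPM in H_T. The 2 groups lay far apart, with a log2 fold change of 3.75 ± 0.20 (adjusted p = 2.51e-07). Its relatives NDRG2 and NDRG3 gave 0.31 and 0.19 (adjusted p = 0.906 and 0.585). PPFIA4, liprin-α4, a scaffold protein, was at 0.753 and 0.625 CPM in N_T and at 10.9 and 7.38 CPM in H_T (3.71 ± 0.34, adjusted p = 3.66e-05). ANKRD37, an ankyrin repeat protein, went from 6.42 and 5.68 to 26.0 and 37.5 CPM (2.38 ± 0.20, adjusted p = 2.05e-05). TMEM45A, a transmembrane protein, went from 7.57 and 10.3 to 50.4 and 56.2 CPM (2.58 ± 0.29, adjusted p = 0.000194). AK4, a mitochondrial adenylate kinase, went from 39.7 and 35.6 to 102.8 and 89.6 CPM (1.35, adjusted p = 6.89e-05). These genes come from a list of 30 genes known to respond to hypoxia. Of the 30, 13 rose and none fell, beside 0.977% called higher and 0.289% lower over all tested genes, and the median was 0.60. The list was put together from genes reported to respond to hypoxia and is not independent evidence of direction. Its most abundant member per kilobase, the cytokine MIF, was at 267 and 312 CPM in N_T and at 436 and 550 CPM in H_T and did not pass (0.77 ± 0.20, adjusted p = 0.0847). CXCR4, the receptor of CXCL12, rose from 16.7 and 19.5 to 42.0 and 63.3 CPM (1.54, adjusted p = 0.00409) and was called in 3 of the 4 fits with a library left out.

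**Figure D2:**
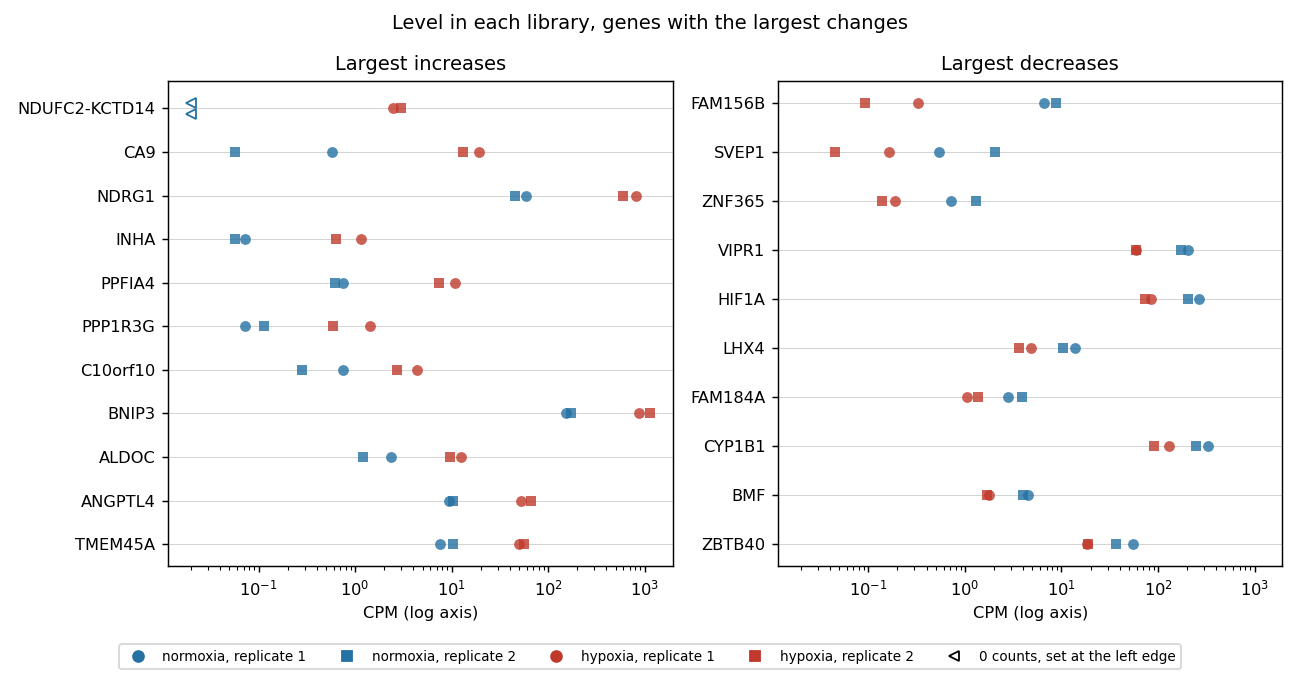
Level in CPM on a log axis in each of the 4 libraries for 11 of the 12 largest increases (left) and the 10 largest decreases (right), with N_T in blue, H_T in red, circles for replicate 1 and squares for replicate 2. Open triangles at the left edge mark libraries with 0 counts, and in every gene shown the red and blue symbols are apart.

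Some genes among the 12 largest increases stood on few counts. INHA, the inhibin α subunit, had 3 counts in the N_T libraries together and 56 in the H_T libraries. The ratio of its levels was 14.4, with a 95% exact interval of 4.69 to 72.1 that covers counting error only, and its adjusted p was 0.047. PPP1R3G, another glycogen-targeting subunit of protein phosphatase 1, was at 0.0717 and 0.114 CPM in N_T and at 1.44 and 0.592 CPM in H_T (3.51 ± 0.62, adjusted p = 0.00989). INHA was not called without any 1 of the 4 libraries (adjusted p = 0.0665 to 0.220). PPP1R3G was called only without H_T replicate 2 (adjusted p of 0.0710 to 0.111 without the others), and its log2 fold change was 2.67 without H_T replicate 1. C10orf10, also known as DEPP1, went from 0.753 and 0.284 to 4.34 and 2.73 CPM (2.68 ± 0.44, adjusted p = 0.0069). It lost its call without H_T replicate 1 or N_T replicate 2 (adjusted p = 0.0697 and 0.0836), and its log2 fold change was 3.64 without N_T replicate 1.

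The largest fitted change belonged to NDUFC2-KCTD14, a readthrough gene that shares exons with its neighbours NDUFC2, a subunit of respiratory complex I, and KCTD14. It had 0 counts in both N_T libraries and was at 2.47 and 2.96 CPM in H_T. Set against a floor of 3 counts over the N_T group, its counted level was at least 40.2-fold higher in H_T. In other normoxic libraries of the line the gene did have counts, at 2.66 and 2.71 CPM in N_P and at 1.06 and 2.02 CPM in NPP_T. Under PP242 its log2 fold change was −1.18. The 40.2-fold therefore covers counting error in these 4 libraries only and is no lower bound on a rise with hypoxia. NDUFC2 itself was at 113 and 139 CPM in N_T and at 105.6 and 158.9 CPM in H_T, so its groups overlapped. KCTD14 was at 23.5 and 25.6 CPM in N_T and at 26.3 and 31.8 CPM in H_T. RSEM shares reads among overlapping genes, so the value of the readthrough gene is uncertain.

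BNIP3, a receptor for mitophagy on the outer mitochondrial membrane, had the largest increase among the listed genes of mitophagy, autophagy and mTORC1 brakes. BNIP3 was at 151 and 171 CPM in N_T and at 878 and 1126 CPM in H_T. The rise of 2.64 ± 0.16 (adjusted p = 8.88e-07) had the second smallest p among all genes. BNIP3L, its close relative NIX, went from 173 and 129 to 313 and 328 CPM (1.08 ± 0.19, adjusted p = 0.0101). PINK1, the kinase that marks damaged mitochondria, was at 87.2 and 86.3 CPM in N_T and at 162 and 118 CPM in H_T (0.69 ± 0.16, adjusted p = 0.0475). These were the 3 of 17 genes of mitophagy, autophagy and mTORC1 brakes that rose, and none fell. Over all tested genes 0.977% were called higher and 0.289% lower. The median of the list was 0.08, against 0.21 without H_T replicate 1 and 0.22 without H_T replicate 2. Without H_T replicate 1 or N_T replicate 2, BNIP3 alone of this list was called. BNIP3L kept its call only without N_T replicate 1 (adjusted p of 0.0542 to 0.148 in the other fits) and PINK1 only without H_T replicate 2 (0.160 to 0.269). DDIT4, a brake on mTORC1, was at 90.7 and 26.7 CPM in N_T and at 99.1 and 84.8 CPM in H_T, with wide spread in N_T (0.64 ± 0.73, adjusted p = 0.799).

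Of the enzymes that modify and cross-link collagen, 6 of 17 rose, beside 0.977% of all tested genes. P4HA1, a catalytic subunit of collagen prolyl hydroxylase, went from 40.1 and 33.3 to 212 and 222 CPM (2.56 ± 0.20, adjusted p = 1.05e-05). LOX, lysyl oxidase, went from 24.7 and 29.7 to 108.02 and 88.4 CPM (1.85 ± 0.16, adjusted p = 2.15e-05). P4HA2 went from 25.0 and 20.9 to 70.1 and 68.5 CPM (1.59 ± 0.17, adjusted p = 0.000157). PLOD2, a lysyl hydroxylase of collagen telopeptides, went from 147.4 and 103.3 to 462 and 359 CPM (1.71 ± 0.25, adjusted p = 0.00213). PLOD1, a lysyl hydroxylase, and ERO1A, an oxidase of disulfide formation, were the other members that rose (0.94 and 0.58), with a call in 1 and in none of the 4 fits. None of the list fell, and the median was 0.40. Without N_T replicate 2 the median was 0.22, only 3 of the list were called, and PLOD2 then had an adjusted p of 0.0593. None of 19 genes of collagens and matrix was called (median 0.16), a count near the 0.977% higher and 0.289% lower of all tested genes. FN1, fibronectin, was at 120 and 90.6 CPM in N_T and at 225 and 115 CPM in H_T (0.69, adjusted p = 0.23), and without H_T replicate 2 it was called (1.14, adjusted p = 0.0146). The median of the collagen list was −0.30 without H_T replicate 1 and 0.47 without H_T replicate 2.

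Among angiogenic and secreted factors, 2 of 16 tested genes rose and none fell, with a median of 0.44. Over all tested genes 0.977% were called higher and 0.289% lower. Under the processing alternatives 1 to 8 of the list were called. ANGPTL4, a secreted inhibitor of lipoprotein lipase, went from 9.33 and 10.2 to 52.4 and 65.8 CPM (2.60 ± 0.25, adjusted p = 5.65e-05). EDN1, the vasoconstrictor endothelin-1, went from 50.1 and 49.9 to 85.5 and 108.3 CPM (0.95 ± 0.13, adjusted p = 0.00148). VEGFA, the main inducer of vessel growth, was at 301 and 260 CPM in N_T and at 341 and 433 CPM in H_T. Its libraries did not overlap, and the change of 0.46 ± 0.15 did not pass (adjusted p = 0.164). THBS1, thrombospondin-1, an inhibitor of angiogenesis, was at 1161 and 767 CPM in N_T and at 708 and 489 CPM in H_T (−0.69 ± 0.21, adjusted p = 0.151). Its log2 fold change was −0.35 without N_T replicate 1 and −0.99 without H_T replicate 1. ADM, adrenomedullin, gave 0.67 (adjusted p = 0.325).

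KDM3A, an oxygen-dependent histone H3 lysine demethylase, went from 44.8 and 36.0 to 129 and 137 CPM (1.72 ± 0.18, adjusted p = 0.00011). It was the 1 of 19 oxygen-dependent histone and DNA demethylases that was called, beside 0.977% higher and 0.289% lower over all tested genes. The median of that list was 0.02. KDM3B, a paralogue of KDM3A and the highest of the list per kilobase, gave −0.05 (adjusted p = 0.946).

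Among cell adhesion and mesenchymal genes MMP1 was called. None of 13 tested integrins was called (median 0.16), and at 0.977% higher and 0.289% lower over all tested genes a list of this size may hold none. ITGB3, integrin β3, was low at 2.33 and 1.93 CPM in N_T and at 2.15 and 1.09 CPM in H_T, and its groups overlapped (−0.37 ± 0.34, adjusted p = 0.739). The value rested on single libraries, at −0.98 without H_T replicate 1 and 0.04 without H_T replicate 2, with no call in either fit. ITGB1 was at 1279 and 1047 CPM in N_T and at 1317 and 1281 CPM in H_T (0.16, adjusted p = 0.777). MMP1, an interstitial collagenase, went from 242 and 297 to 529 and 756 CPM (1.25 ± 0.18, adjusted p = 0.00213). It was the 1 of 19 genes of epithelial-mesenchymal regulators and markers that rose (median 0.13). VIM, the most abundant of them, was at 3151 and 3634 CPM in N_T and at 4196 and 4303 CPM in H_T (0.32, adjusted p = 0.382).

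Of the DNA replication genes, 2 fell and most of the others had small negative values. LIG1, DNA ligase 1, was at 105.3 and 108.1 CPM in N_T and at 70.6 and 72.9 CPM in H_T. Replicates were close and the change was −0.57 ± 0.12 (adjusted p = 0.0386). MCM5, a subunit of the replicative helicase, was at 107.4 and 116.5 CPM in N_T and at 73.5 and 72.4 CPM in H_T (−0.62 ± 0.14, adjusted p = 0.047). These were the 2 of 40 genes that fell, beside 0.289% of all tested genes, and none rose. DESeq2 called 6 of the list and a replicate block 4, while none was called after thinning or in the fits of 4 or 8 libraries. Of the 40, 36 had a log2 fold change below 0, as had 7172 of the 13510 tested genes. In 26 both H_T libraries lay under both N_T libraries, beside 20.2% of tested genes, and the median was −0.23 against −0.02 over all genes. PCNA, the sliding clamp and the most abundant of them per kilobase, was at 385 and 377 CPM in N_T and at 266 and 364 CPM in H_T (−0.27, adjusted p = 0.599). Neither LIG1 nor MCM5 was called when any 1 of the 4 libraries was left out (adjusted p of 0.121 to 0.200 and of 0.108 to 0.248). The median of the list was −0.16 to −0.33 in these 4 fits.

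The other lists of proliferation genes held 2 calls, beside 0.977% higher and 0.289% lower over all tested genes. CDKN1C and CDKN1A, inhibitors of cyclin-dependent kinases also known as p57 and p21, were the 2 of 23 genes of G1 and proliferation control that rose (median −0.03). CDKN1A was at 76.7 and 92.8 CPM in N_T and at 141 and 182 CPM in H_T (0.93 ± 0.21, adjusted p = 0.0404), and CDKN1C at 2.01 and 1.25 CPM and at 4.89 and 3.74 CPM (1.38 ± 0.28, adjusted p = 0.0241). CDKN1A kept its call only without H_T replicate 1 (adjusted p of 0.127 to 0.194 in the other fits), and CDKN1C lost it without H_T replicate 1 or N_T replicate 2 (0.167 and 0.202). CCND1, cyclin D1, gave −0.03 (adjusted p = 0.98). None of 24 mitotic genes was called (median −0.06), and KIF23 and CDC20 gave −0.30 and −0.06. None of 29 genes of the MYC network and ribosome biogenesis was called (median −0.09), and NPM1 and MXD4 gave −0.06 and 0.45.

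Replication-dependent histones had a median of 0.46, which was 0.34 without N_T replicate 1 and 0.84 without N_T replicate 2. Of 20 tested genes 3 rose, beside 0.977% called higher and 0.289% lower over all tested genes. HIST1H2BD was at 6.03 and 7.11 CPM in N_T and at 22.7 and 17.8 CPM in H_T (1.63 ± 0.30, adjusted p = 0.0119). HIST1H2AC (1.19) and HIST1H4H (0.97) were the other members that rose. Histone mRNAs of this kind mostly lack a poly(A) tail, and the libraries were selected for poly(A). No histone was called without N_T replicate 1, H_T replicate 1 or N_T replicate 2. HIST1H2BD then had an adjusted p of 0.1, 0.089 and 0.0825.

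Genes of the respiratory chain, nuclear and mitochondrial, were not called, as most genes were not (0.977% called higher and 0.289% lower over all tested genes). None of 30 nuclear genes of respiratory chain subunits and their hypoxic exchange passed (median 0.02), and NDUFA4L2 and COX4I2, known to replace other subunits in hypoxia, had too few counts to test. LONP1 and COX8A gave 0.32 and 0.02. None of 19 genes of mitochondrial biogenesis and import passed (median −0.12), and MTHFD2 and MRPL12 gave −0.27 and −0.16. The 13 mitochondrially encoded mRNAs had a median of 0.48 and no call, though 3 were called with no filter on low counts. They took 4.88% and 5.50% of the N_T counts and 5.09% and 7.80% of the H_T counts, and the median was 0.88 without H_T replicate 1 and 0.014 without H_T replicate 2.

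In the other lists of stress and nutrient pathways 2 genes were called. Nothing about these lists is read from counts that are near the 0.977% higher and 0.289% lower of all tested genes. VLDLR, a lipoprotein receptor, rose (1.01 ± 0.15, adjusted p = 0.0023) and was the 1 called of 25 genes of the ATF4 pathway and amino acid supply (median −0.07). VLDLR was placed in that list and not among the genes of lipid storage, so its call says nothing about amino acid supply. SLC7A5, a transporter of large neutral amino acids, was at 1187 and 817 CPM in N_T and at 732 and 425 CPM in H_T (−0.79 ± 0.35, adjusted p = 0.361). Its log2 fold change was −0.41 without H_T replicate 2 and −1.25 without H_T replicate 1. INSIG2, which holds back sterol synthesis, rose (1.00 ± 0.18, adjusted p = 0.0104) as the 1 called of 29 genes of sterol and fatty acid synthesis (median −0.02). Its call was lost without N_T replicate 2 or H_T replicate 2 (adjusted p = 0.149 and 0.0864). None was called of 19 ER chaperones and unfolded protein response genes (median 0.19, CALR 0.30, MANF 0.51), of 15 genes of lipid storage (0.06, G0S2 0.72, LPIN1 −0.59) or of 12 genes of iron handling (0.11, FTL 0.25, SLC11A2 −0.40). None was called either of 25 inflammatory and interferon genes (−0.01, TNFAIP3 0.63), of 23 immediate early genes and ERK feedback genes (0.16, IER3 0.49, KLF10 0.67) or of 18 genes of receptor tyrosine kinases and insulin signalling (0.03, AXL −0.07, KIT −1.82). KLF10 was called without H_T replicate 1 (adjusted p = 0.0392). IL11, a cytokine of the IL-6 family and the inflammatory gene with the highest level per kilobase, was at 603 and 89.2 CPM in the N_T libraries and at 255 and 206 CPM in H_T. The N_T libraries enclosed the H_T values (−0.59 ± 1.04, adjusted p = 0.882).

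**Figure D3:**
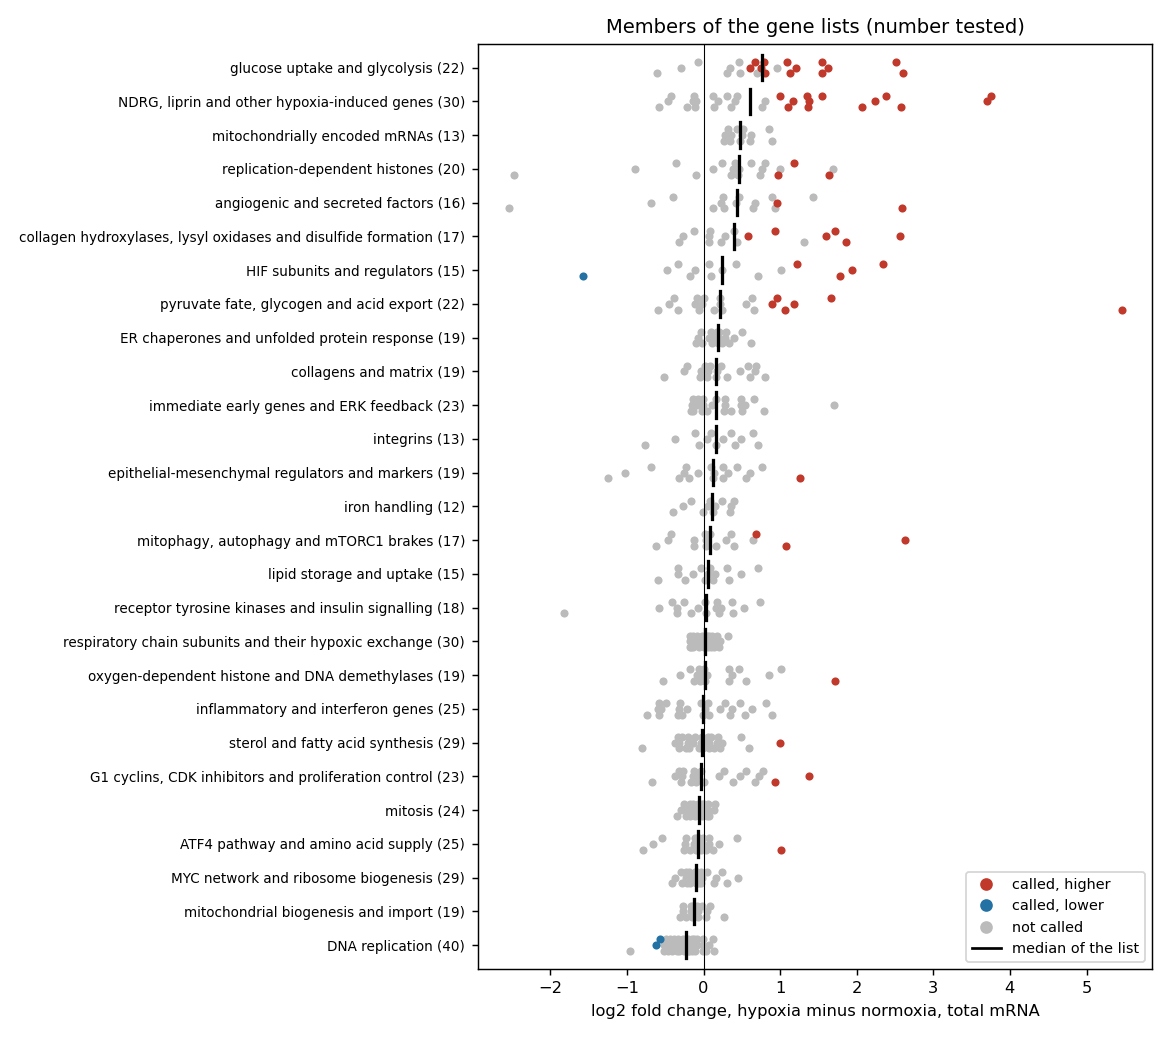
Log2 fold change of H_T against N_T (horizontal axis) for each tested member of 27 gene lists (rows, with the number tested), ordered by median, with called increases in red, called decreases in blue, other members in grey and the median of each list as a black bar. Glycolysis has the highest median (0.77) with 13 red points, and DNA replication the lowest (−0.23) with 2 blue points.

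Decreases were fewer than increases, and 3 of the 39 belonged to a list. VIPR1, a receptor for vasoactive intestinal peptide, was at 205 and 172 CPM in N_T and at 59.2 and 58.5 CPM in H_T. It had the smallest p among the decreases (−1.68 ± 0.14, adjusted p = 2.05e-05) and was called with every library left out. VIPR1 lies on chromosome 3 at 42489299 to 42537573, plus strand, and its antisense gene VIPR1-AS1 went from 4.84 and 2.44 to 0.570 and 0.774 CPM. CYP1B1, a cytochrome P450 and target of the aryl hydrocarbon receptor, went from 326 and 246 to 129 and 91.7 CPM (−1.37 ± 0.27, adjusted p = 0.0203). AHRR, the repressor of that receptor, also fell, from 18.4 and 20.4 to 10.3 and 9.16 CPM (−0.99, adjusted p = 0.015). It was chosen for mention after its values were seen and was called in none of the 4 fits with a library left out. ZBTB40, a zinc finger protein, went from 54.6 and 36.7 to 18.3 and 18.8 CPM (−1.30 ± 0.23, adjusted p = 0.00969). LHX4, a LIM homeobox factor, went from 13.7 and 10.3 to 4.83 and 3.64 CPM (−1.49, adjusted p = 0.0211). BMF, a pro-apoptotic BH3-only protein, went from 4.52 and 3.98 to 1.76 and 1.69 CPM (−1.30, adjusted p = 0.0279).

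FAM184A, SVEP1 and ZNF365 stood lower still. FAM184A went from 2.80 and 3.92 to 1.06 and 1.37 CPM (−1.47, adjusted p = 0.0262). SVEP1, an extracellular matrix protein, was at 0.538 and 2.05 CPM in N_T and at 0.163 and 0.0456 CPM in H_T (−3.37 ± 0.70, adjusted p = 0.0295). ZNF365 was at 0.717 and 1.31 CPM in N_T and at 0.190 and 0.137 CPM in H_T (−2.53 ± 0.57, adjusted p = 0.047). Of the 10 largest decreases, VIPR1, HIF1A and FAM156B kept their call with every library left out. LHX4, BMF and ZNF365 had no call in any of these 4 fits (adjusted p from 0.0516 for LHX4 to 0.263 for ZNF365). SVEP1 and ZBTB40 lost it in 3 of the 4, up to an adjusted p of 0.264 and 0.0965, and the log2 fold change of SVEP1 was −4.09 without N_T replicate 1, −4.65 without H_T replicate 1 and −2.18 without N_T replicate 2. CYP1B1 was called only without N_T replicate 2, and FAM184A only without N_T replicate 1, with an adjusted p of up to 0.178 and 0.198 in the other fits.

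FAM156B had the largest fitted decrease among called genes and a near-identical copy, so its value is uncertain. It was at 6.56 and 8.87 CPM in N_T and at 0.326 and 0.0911 CPM in H_T (−5.02 ± 0.62, adjusted p = 0.000462). The log2 fold change was −6.34 without H_T replicate 1. Its copy FAM156A was at 65.4 and 54.5 CPM in N_T and at 38.4 and 54.3 CPM in H_T. The sum of both was 72.0 and 63.3 CPM in N_T and 38.7 and 54.4 CPM in H_T. How the reads were divided between the copies was not tested.

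The called genes were then read in the other contrasts. The polysomal and PP242 libraries of MDA-MB-231 had entered the fit that gave the calls, which used their counts for the filter and the spread. In polysomal mRNA, H_P against N_P, all 132 genes that rose in total mRNA had a positive log2 fold change and all but 27 were called higher, with a median of 1.09. The titles number the total and polysomal libraries of a condition alike, and the paper describes both fractions as taken from each sample. The polysomal values are therefore not a separate replication. Over all tested genes of that contrast, 1.78% were called higher and 0.511% lower. Of the 39 that fell, 37 had a negative value and 25 were called lower, with a median of −0.81. The exceptions were FAM156B (0.34) and CTC-429P9.4, a gene with no established name. CA9 gave 5.62, NDRG1 3.75, BNIP3 2.75 and HIF1A −1.79 in polysomal mRNA.

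Under PP242 the hypoxia response of total mRNA (HPP_T against NPP_T) had the same sign for 131 of the 132 genes that rose and for all 39 that fell. Of these 113 and 24 were called, with medians of 1.07 and −0.74, against 1.62% called higher and 1.1% called lower over all tested genes. The exception was NDUFC2-KCTD14. Under PP242, CA9 gave 5.30, NDRG1 3.47, ANGPTL4 2.73, VIPR1 −1.42 and HIF1A −1.38. A test of the difference between the fractions called 2 genes (0.0148%), FAM156B and NDUFC2-KCTD14, and a test of the difference with and without PP242 called NDUFC2-KCTD14 alone (0.0074%). At an unadjusted p under 0.05 these tests gave 180 and 133 genes, and both called genes have the uncertain counts described above.

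In MCF10A, fitted by itself, 122 of the genes that rose and 37 of those that fell had enough counts. Of these 115 and 33 had the same sign, with medians of 1.37 and −0.40. There 46 of the 122 were called higher and none of the 37 was called lower, against 1.39% and 0.145% of 13124 tested genes. CA9 gave 5.95 ± 0.48, NDRG1 4.12 ± 0.39, BNIP3 2.54 ± 0.36, ANGPTL4 2.69 ± 0.39, PGK1 2.25 ± 0.29 and LDHA 1.77 ± 0.34 in MCF10A. HIF1A gave −0.25 ± 0.46 there (adjusted p = 1). CXCR4, HSPH1, RGS4, CDC42EP2, CDKN1A and MAP2K3 were among the 7 genes that rose in MDA-MB-231 with a negative value in MCF10A, and NDUFC2-KCTD14 was the other.

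**Figure D4:**
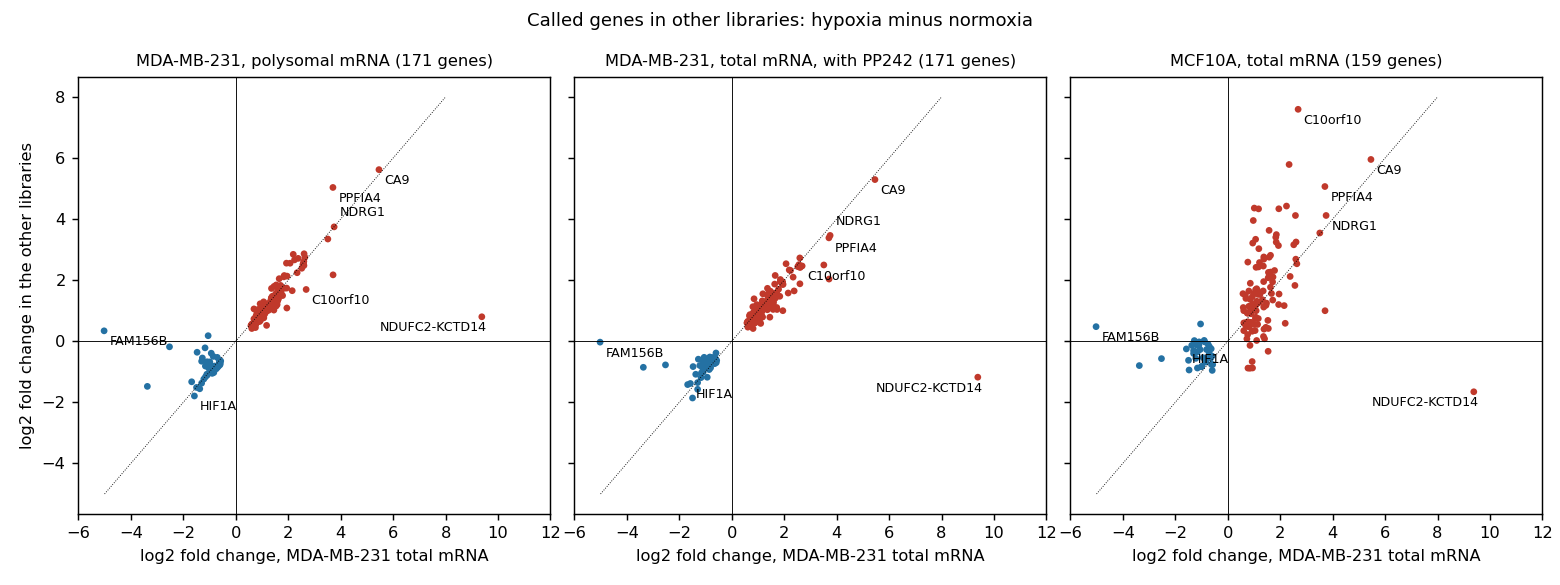
Log2 fold change of hypoxia against normoxia in polysomal mRNA of MDA-MB-231, in its total mRNA under PP242 and in total mRNA of MCF10A (vertical axes) plotted against that in total mRNA of MDA-MB-231 (horizontal axes) for the called genes, red where they rose and blue where they fell, with equality as a dotted line. The first 2 panels follow the line for most of 171 genes, and in MCF10A the 159 genes with a value spread more widely, with C10orf10 well above the line and the blue points near 0.

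A joint fit of all 32 libraries tested whether the response of total mRNA differed between the lines, and 38 of 14298 genes (0.266%) were called, 10 with the higher log2 fold change in MDA-MB-231 and 28 with the lower. At an unadjusted p under 0.05 there were 1068. Of the 171 genes called in MDA-MB-231, 8 were among the 38. EGLN3 rose by 2.36 ± 0.30 in MDA-MB-231 and by 5.77 ± 0.38 in MCF10A on the log2 scale, a difference of −3.41 ± 0.46 (adjusted p = 0.00115). VLDLR rose by 1.04 ± 0.31 and 4.34 ± 0.36, a difference of −3.30 ± 0.46 (adjusted p = 0.00139). APLN, the secreted ligand of the apelin receptor, gave 0.97 ± 0.25 and 3.20 ± 0.27, a difference of −2.22 ± 0.36 (adjusted p = 0.00693). ENO2 gave 1.23 and 2.55 and KCTD11, an adaptor of a ubiquitin ligase, 1.19 and 2.41, so both responses were smaller in MDA-MB-231 (differences −1.31 and −1.22, adjusted p = 0.0229 and 0.049). EGLN3, VLDLR, APLN, ENO2 and KCTD11 were chosen for mention after their values were seen. The differences for EGLN3 and VLDLR were called with each of the 8 libraries of these groups left out, that for APLN in 5 of these fits (adjusted p of 0.0532 to 0.0693 in the others), that for ENO2 in 1 (adjusted p of 0.0544 to 0.149 in the others) and that for KCTD11 in none (0.0764 to 0.291). C10orf10 gave 2.71 ± 0.49 and 7.59 ± 0.62 (difference −4.88 ± 0.81, adjusted p = 0.00693).

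Some genes had values of opposite sign in the lines. HSPH1, a heat shock protein of the HSP110 family, went from 177 and 165 to 328 and 297 CPM in MDA-MB-231 and from 133 and 141 to 76.3 and 69.3 CPM in MCF10A, on the scaling of the joint fit. Its groups were apart in both lines and the difference was 1.78 ± 0.33 (adjusted p = 0.0198). The chemokine CXCL8 was at 21.7 and 11.5 CPM in N_T and at 33.0 and 26.3 CPM in H_T of MDA-MB-231, and at 7.60 and 5.26 CPM and at 1.63 and 1.79 CPM in MCF10A (difference 2.74 ± 0.57, adjusted p = 0.04). SPRY1, a feedback inhibitor of receptor tyrosine kinase signalling, gave −0.11 ± 0.36 in MDA-MB-231 and 4.83 ± 0.49 in MCF10A. GJB2, connexin 26, gave −0.74 ± 0.47 and 3.98 ± 0.48. The differences for SPRY1 and GJB2 kept their call in all 8 of these fits. That for CXCL8 lost it in 7 of them (adjusted p = 0.0901 to 0.244) and that for C10orf10 in 3 (0.0693 to 0.165). The difference for HSPH1 lost its call without any 1 of the 8 libraries (adjusted p = 0.0556 to 0.133), and the number of called differences was 8 to 19 in those fits.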

How the data were processed

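Total and polysome-bound mRNA of MDA-MB-231 and MCF10A cells was sequenced by the authors from poly(A)-selected libraries, with no strand stated. The authors aligned reads using STAR (version 2.5.1b, with the GENCODE v24 annotation), and RSEM (version 1.2.28) gave the expected counts of each gene. The paper's methods name GRCh38 and the labels' processing notes another build, so positions given here come from GENCODE v44 on GRCh38 by gene identifier. The deposited expected counts were whole and not normalised, so rounding changed none of them. RSEM divides reads that fit several genes, which makes copies and overlapping genes uncertain.

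The 16 MDA-MB-231 libraries were fitted together in 8 groups with edgeR 4.0.16 in R 4.3.3 (protein-coding genes, filterByExpr, TMM, quasi-likelihood F test, Benjamini-Hochberg adjusted p under 0.05). Pooling the groups left 8 residual degrees of freedom, and the biological coefficient of variation was 0.150. MCF10A was fitted by itself for its own response, and a joint fit of 32 libraries tested differences between lines. Replicates differed by more than sampling noise (chi-square per degree of freedom 20.4 in N_T and 77.3 in H_T). No column was left without a sample (0). Named genes were the 12 largest called increases, the 10 largest called decreases, up to 4 called members of each list with the smallest p and its most abundant member per kilobase, and the largest differences between responses. Genes named to complete a count of called members were chosen after their values were seen. Some genes that the rule names are not reported here. The genes named and the lists were chosen with earlier results of these data known. Alternatives were DESeq2 1.42.0, its size factors, no filter, smaller fits, a replicate block, all gene classes, thinning, other thresholds and leaving out each library. The procedure was tested on simulated counts, drawn with the dispersions of the same fit and no added library effect. That test cannot speak to calls lost when a library is left out. Deposited columns for other lines or fractions were used only where stated. Promoter sequences came from RefSeq. Counting intervals and floors cover counting error only.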

Additional observations from a re-analysis of the deposited data

Results flagged for a closer look

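The response of 2 genes differed between polysomal and total mRNA of MDA-MB-231 by the interaction test of edgeR. NDUFC2-KCTD14 gave a difference of −8.58 and FAM156B one of 5.36 on the log2 scale. No fit with a library left out called both. NDUFC2-KCTD14 also differed with and without PP242, by −10.56. NDUFC2-KCTD14 had 0 counts in both N_T libraries, so its fitted values depend on the prior count and are no bounds, and both genes have a copy or readthrough partner that shares reads.

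The response differed between MDA-MB-231 and MCF10A for 12 genes named by size. Higher in MDA-MB-231 were PGBD5 (6.47), CXCL8 (2.74), CHRDL1 (2.60), RGS7 (2.45), TINAGL1 (2.45) and HSPH1 (1.78). Lower were ASB2 (−9.05), NDNF (−8.23), FAM156B (−5.46), SPRY1 (−4.95), C10orf10 (−4.88) and GJB2 (−4.72). With each of the 8 libraries left out in turn, PGBD5 was called in no fit (adjusted p of 0.0764 to 0.195), RGS7 in 1 (up to 0.348), TINAGL1 in 2 (up to 0.133), CHRDL1 and ASB2 in 4 (both up to 0.0955), FAM156B in 6 (up to 0.0946) and NDNF in 7 (0.0554 in the other). PGBD5 had 0 counts in both N_T libraries of MDA-MB-231 and 7 and 5 in H_T, and ASB2 and NDNF had 0 in both N_T libraries of MCF10A, so these 3 fitted values are no bounds. CHRDL1, an inhibitor of bone morphogenetic proteins, was at 47.2 and 38.1 CPM in N_T and at 38.9 and 39.2 CPM in H_T of MDA-MB-231, and at 1.10 and 1.32 CPM and at 0.181 and 0.179 CPM in MCF10A. TINAGL1, a matrix protein, gave 0.46 in MDA-MB-231 and −1.99 in MCF10A. The lines were grown in different media, and line and medium cannot be told apart.

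Genes outside the protein-coding class were not part of the report's counts. In a fit of all classes, 25 of 3485 such genes were called higher and 4 lower in H_T. The largest increases were in LINC00882 (4.83), MIR210HG (3.41), AC093818.1 (2.74), AP000695.4 (2.69) and RPL32P29 (2.68). MIR210HG, the host gene of a microRNA known to be induced by hypoxia, was at 1.51 and 0.965 CPM in N_T and at 12.5 and 14.5 CPM in H_T, with an adjusted p of 0.000147. LINC00882 had 6 and 0 counts in N_T and 216 and 30 in H_T. AC093818.1 lies opposite PDK1, from 172480840 to 172556596 on chromosome 2 (GRCh38), and overlaps it in part, so without strand the reads of the overlap cannot be assigned to either gene. The largest decreases were in AC010761.9 (−4.58), VIPR1-AS1 (−2.47) and CTD-2555O16.4 (−1.48). AC010761.9 had 23 counts in N_T and 1 in H_T, so its level was 29.7-fold lower, with a 95% counting interval of 4.83 to 1225.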

How the results depend on the processing

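No called gene changed sign under any alternative. The calls were 1.27% of the genes tested (0.977% higher, 0.289% lower). They were 2.61% with DESeq2 (1.84 and 0.777), 2.60% with no filter (1.88 and 0.712), 2.43% with a replicate block (1.72 and 0.711), 2.19% at an adjusted p under 0.10 (0.740 lower) and 0.785% at an absolute log2 fold change of 1 (0.629 and 0.155). A fit of only the 4 libraries called 0.342% (0.319 and 0.0233) and of the 8 total mRNA libraries 0.690% (0.630 and 0.0600). With 1 library left out, 0.395 to 0.922% were called, 0.329 to 0.845% higher and 0.0658 to 0.307% lower. Against 171 genes in all, other size factors gave 167, all classes 180 and thinning 149. Of the 171 genes, 169 remained called with DESeq2, 171 with the block, 163 with other size factors, 143 after thinning, 90 in the 8 libraries and 43 in the 4.

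The difference between fractions was called for 18 genes with no filter and for 0 to 1 with a library left out. That with PP242 was called for 2 with DESeq2, 16 with no filter, 2 with a replicate block, 2 at an adjusted p under 0.10 and 1 to 2 with a library left out. The difference between lines was called for 127 with DESeq2, 70 with a replicate block within each line, 68 at an adjusted p under 0.10 and 8 to 19 with a library left out.

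Replicate numbers were not taken as pairs, though the titles number the conditions of each replicate in sequence. The deviations of N_T and H_T libraries with the same number correlated at r = 0.222 across genes, and 4 of 6 pairs of total mRNA groups were over 0.1 (−0.187 to 0.282). Of single results, 998 values of named genes for hypoxia in total mRNA kept their side of the threshold, 121 lost and 19 gained a call. For the named differences between lines, 92 values kept their side and 52 lost a call. Among list medians, 264 moved by no more than a spread between replicates and 60 moved by more. This spread was the SD of the list median of H_T minus N_T in replicate 1 and in replicate 2. It rests on 2 values and on a pairing by number, so it is a rough yardstick. The number of called members of a list stayed within 1.5 times in 258 cases and moved by more in 66. The median had opposite signs without H_T replicate 1 and without H_T replicate 2 for 10 of the 27 lists, namely collagens (−0.30 and 0.47), integrins (−0.12 and 0.46), epithelial-mesenchymal genes (−0.046 and 0.24), demethylases (−0.12 and 0.35), sterol synthesis (−0.21 and 0.17), receptor tyrosine kinases (−0.30 and 0.26), inflammatory genes (−0.14 and 0.094), the respiratory chain (0.22 and −0.20), mitosis (0.096 and −0.22) and G1 control (0.070 and −0.0060). With 2 libraries a group, and 18340916 counts in the smallest library, genes under 1 CPM rest on few counts. The smaller fits also have fewer degrees of freedom. Why calls and values changed between fits was not tested.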

Other observations

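Genes in no list made up 77 of the 132 increases, and several were steady across libraries. They were chosen for mention after their values were seen. DNAH11, a heavy chain of axonemal dynein, was at 2.12 and 2.90 CPM in N_T and at 11.9 and 10.8 CPM in H_T (edgeR log2 fold change 2.19 ± 0.23, adjusted p = 0.000122). CRABP2, a carrier of retinoic acid, went from 4.45 and 5.12 to 14.3 and 14.2 CPM (1.58 ± 0.20, adjusted p = 0.000531). NOG, noggin, a secreted antagonist of bone morphogenetic proteins, went from 124 and 113 to 243 and 270 CPM (1.11 ± 0.15, adjusted p = 0.000878). C4orf3 went from 78.1 and 80.2 to 201 and 260 CPM (1.54, adjusted p = 0.000445), and PPP2R5B, a regulatory subunit of protein phosphatase 2A, from 13.6 and 12.6 to 29.1 and 26.3 CPM (1.08, adjusted p = 0.000531). All 5 were called with every library left out.

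PLAT, the tissue plasminogen activator, was at 225 and 115 CPM in N_T and at 898 and 411 CPM in H_T (1.94 ± 0.45, adjusted p = 0.0497), and its log2 fold change was 1.25 to 2.51 with 1 library left out. ERRFI1, a feedback inhibitor of the EGF receptor, was at 194 and 308 CPM in N_T and at 802 and 861 CPM in H_T (1.73 ± 0.34, adjusted p = 0.0198). Each was called in 1 of the 4 fits with a library left out.

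Among the decreases, SFXN2, a mitochondrial carrier, went from 18.2 and 18.4 to 7.63 and 8.84 CPM (−1.15 ± 0.18, adjusted p = 0.0047). FECH, which completes haem synthesis, went from 23.8 and 21.1 to 14.6 and 13.1 CPM (−0.70, adjusted p = 0.0273), and SARS2, the mitochondrial seryl-tRNA synthetase, from 28.2 and 26.6 to 17.2 and 18.3 CPM (−0.63, adjusted p = 0.0354). TRAP1, the mitochondrial HSP90, went from 101.99 and 113.2 to 65.4 and 77.6 CPM (−0.59, adjusted p = 0.0326). CIRBP, the cold-inducible RNA-binding protein, went from 182 and 170 to 86.6 and 102.6 CPM (−0.90, adjusted p = 0.0122). FECH and SARS2 were called in none of the 4 fits with a library left out, TRAP1 and CIRBP in 1 and SFXN2 in 3.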
